A study of Mus musculus with 35 samples.

Results

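The 6 genes described here encode the enzymes that write and erase methylation on cytosine in mouse DNA. They are the DNA methyltransferases Dnmt1, Dnmt3a and Dnmt3b and the TET dioxygenases Tet1, Tet2 and Tet3. They were taken by symbol as a named family, with no threshold on a measured value but with earlier results of these data known, and make up 6 of the 48709 genes in the count tables. All 6 passed the filter on low counts and were tested, among 13819 tested genes.

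RNA was sequenced from OT-I CTLs, which are effector CD8+ T cells of mice carrying a transgenic T cell receptor for ovalbumin. According to the methods of the study, the cells were purified from spleen by negative selection, primed through CD3 and CD28 with antibodies, and then grown on in murine IL-2. Every group, the 3 without IL-2 at 24 h included, therefore came from cells grown in IL-2 beforehand, and all 7 groups share the same genotype as far as the labels say. The 35 libraries form 7 groups of 5 biological replicates. One group was taken at 0 h. Cells of the other groups spent 24 h in medium set to pH 7.4, pH 7 or pH 6.6, and at each of these pH values mIL-2 (murine IL-2) was either left out or given at 200 IU/mL. Dead cells were removed on Ficoll before extraction. The age of the mice is not given in the sources used here, and the cells are a culture of purified CD8+ T cells outside a tumor.

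Dnmt1 is the maintenance methyltransferase. It copies methylation onto the new strand behind the replication fork, guided by Uhrf1 and bound to the sliding clamp Pcna, and its transcript is known to be highest in cells that replicate DNA. Dnmt3a and Dnmt3b set methylation on new sites, and in CD8+ T cells Dnmt3a is known for silencing genes of the naive and memory states during effector differentiation. The Tet enzymes oxidise 5-methylcytosine with 2-oxoglutarate and iron as cofactors, after which the base is diluted by replication or removed by repair. Loss of Tet2 in CD8+ T cells is known to favor memory-like cells.

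The genes lie on 6 chromosomes of the GRCm38 build, with coordinates from GENCODE M21. Dnmt1 lies on chromosome 9 from 20907209 to 20959888 on the minus strand, and Dnmt3a on chromosome 12 from 3806007 to 3914443 on the plus strand. Dnmt3b lies on chromosome 2 from 153649450 to 153687730 on the plus strand. Tet1 lies on chromosome 10 from 62804570 to 62908996, Tet2 on chromosome 3 from 133463679 to 133545139 and Tet3 on chromosome 6 from 83362373 to 83459084, all on the minus strand. Counts are over exons. Of the 50-base windows of their transcripts, 90.2% for Dnmt3b and from 99.2% to 100% for the others occurred in no other gene. An opposite-strand gene covers 0.799% of the exon bases of Dnmt3a (Dnmt3aos) and 0.255% of those of Tet2 (Gm42567), and the strand setting of the counting is not given in the sources used here.

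Because the pattern of Dnmt1 over the libraries was close to that of genes of DNA replication, short stretches around its start sites that hold E2F-type words are shown with those of the Dnmt1 partners that hold one. E2F factors are known for driving genes of DNA replication. Promoter windows of 300 bases, from 250 before to 50 after a start site, come from RefSeq (GRCm38.p6). The words searched on both strands were TTTCCCGC, TTTCGCGC, TTTGCCGC and TTTGGCGC. They occur in 2.26% of 32851 windows and in a window of 2.6% of 27025 genes. Of the 6 genes, which have 10 windows, Dnmt1 held matches, in 1 of its 3 windows (chr9:20952574-20952873, minus strand). Each line below is 5′ to 3′ on the strand of the gene, with the match in capitals. Start sites are those of RefSeq, and GENCODE M21 places the stretches of Dnmt1, Pclaf, Lig1 and Hells wholly in annotated exons, that of Cdca7 partly, and that of Uhrf1 outside them.
Dnmt1, 219 bases before the start (chr9:20952824-20952853, minus strand): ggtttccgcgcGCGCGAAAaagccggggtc
Dnmt1, 33 bases after the start (chr9:20952574-20952601, minus strand): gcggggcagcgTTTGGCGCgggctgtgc
Uhrf1, 185 bases before the start (chr17:56304117-56304146, plus strand): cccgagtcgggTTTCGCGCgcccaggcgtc
Pclaf, 5 bases before the start (chr9:65890307-65890336, plus strand): gcttggagcgcGCGGGAAAgagacccattt
Cdca7, 71 bases before the start (chr2:72476137-72476166, plus strand): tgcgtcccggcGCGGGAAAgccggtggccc
Lig1, 26 bases after the start (chr7:13278841-13278870, plus strand): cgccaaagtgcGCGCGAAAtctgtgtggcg
Hells, 62 bases before the start (chr19:38930917-38930946, plus strand): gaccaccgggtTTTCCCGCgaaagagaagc
A match was found for 5 of the 11 partners of Dnmt1 and for 7 of the 20 replication genes with a window. A match is a description of letters in a window and not a measured site. The genes used for the shares above were not matched to these for GC content, CpG number or number of windows. The windows of the other 5 genes held no match to these words. The E-box word CACGTG occurred in 1 window of Dnmt3a and in 7.15% of all windows, and the STAT word TTCNNNGAA in none of the 10 windows and in 8.3% of all windows. The E-box word was found for 2 of the 11 partners and 3 of the 20 replication genes, against 8.09% of all genes with a window. The STAT word was found for 2 of the 11 and 2 of the 20, against 9.55%. The GC content of the 10 windows of the 6 enzymes ran from 51.3% to 82.3%, and the number of CpG dinucleotides from 2 in the first window of Dnmt1 to 57 in that of Tet2.

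Libraries held 16721319 to 34033340 counts on genes (median 24730020). The 8 markers of CD8+ T cells (Cd3d, Cd3e, Cd3g, Cd8a, Cd8b1, Gzmb, Prf1 and Trac) were counted in every group, with medians of the summed level from 2986 CPM (counts scaled to a common library size, normalized by TMM) at pH 6.6 to 11880 at 0 h. Over all libraries, Gzmb ranged from 36.7 to 9010 CPM and Prf1 from 11.1 to 686. Cd3d ranged from 282 to 882 CPM, Cd3g from 399 to 1197 and Trac from 300 to 780. Cd8a ranged from 674 to 1596 CPM, Cd3e from 374 to 631 and Cd8b1 from 212 to 414. The sum of the 8 markers was lower without IL-2 than with it at each pH. With IL-2 it was also lower at pH 6.6 (3557 to 4939 CPM) than in the libraries of pH 7.4 (9692 to 12444 CPM). Its part in the results below was not tested. The defining markers of B cells, erythroid cells and fibroblasts summed to at most 0.381, 0.274 and 0.43 CPM in any library. Those of CD4+ T cells summed to at most 5.5 CPM and those of myeloid cells to at most 3.93 CPM. Of the NK cell markers, Ncr1 had at most 2 counts in a library, whereas Klrb1c had 182 to 2592 counts. The sum of both had medians of 25.2 CPM at pH 6.6 and 43.9 at pH 7.4 with IL-2, and of 10.9 and 33 without it, with no overlap in either comparison, and its part was not tested. In bulk RNA, fewer cells that express a gene and less RNA per cell cannot be told apart.

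Transcript levels of the 6 genes differed widely. Levels of different genes are compared as FPKM, the CPM per kilobase of all annotated exons of a gene. Dnmt1 ranged from 9.21 to 83.2 FPKM over the 35 libraries and Tet3 from 5.69 to 14. Tet2 ranged from 1.98 to 8.67 FPKM, Dnmt3b from 2.02 to 6.69 and Dnmt3a from 2.87 to 5.54. Tet1 was by far the lowest, from 0.0723 to 0.356 FPKM, with 26 to 160 counts per library, against at least 858 counts for Tet2 and 2141 for Tet3. By this measure, Dnmt1 was the main methyltransferase transcript in every group. It made up 57.9% ± 1.08 (SD, n = 5) of the summed FPKM of the 3 Dnmt genes in the pH 7.4 group without IL-2, against 89.0% ± 0.978 once IL-2 was present. These shares depend on the exon lengths used, 7377 bases for Dnmt1, 16642 for Dnmt3a and 5106 for Dnmt3b. In CPM, without lengths, Dnmt1 and Dnmt3a averaged 75.4 and 52.9 at pH 7.4 without IL-2.

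**Figure D1:**
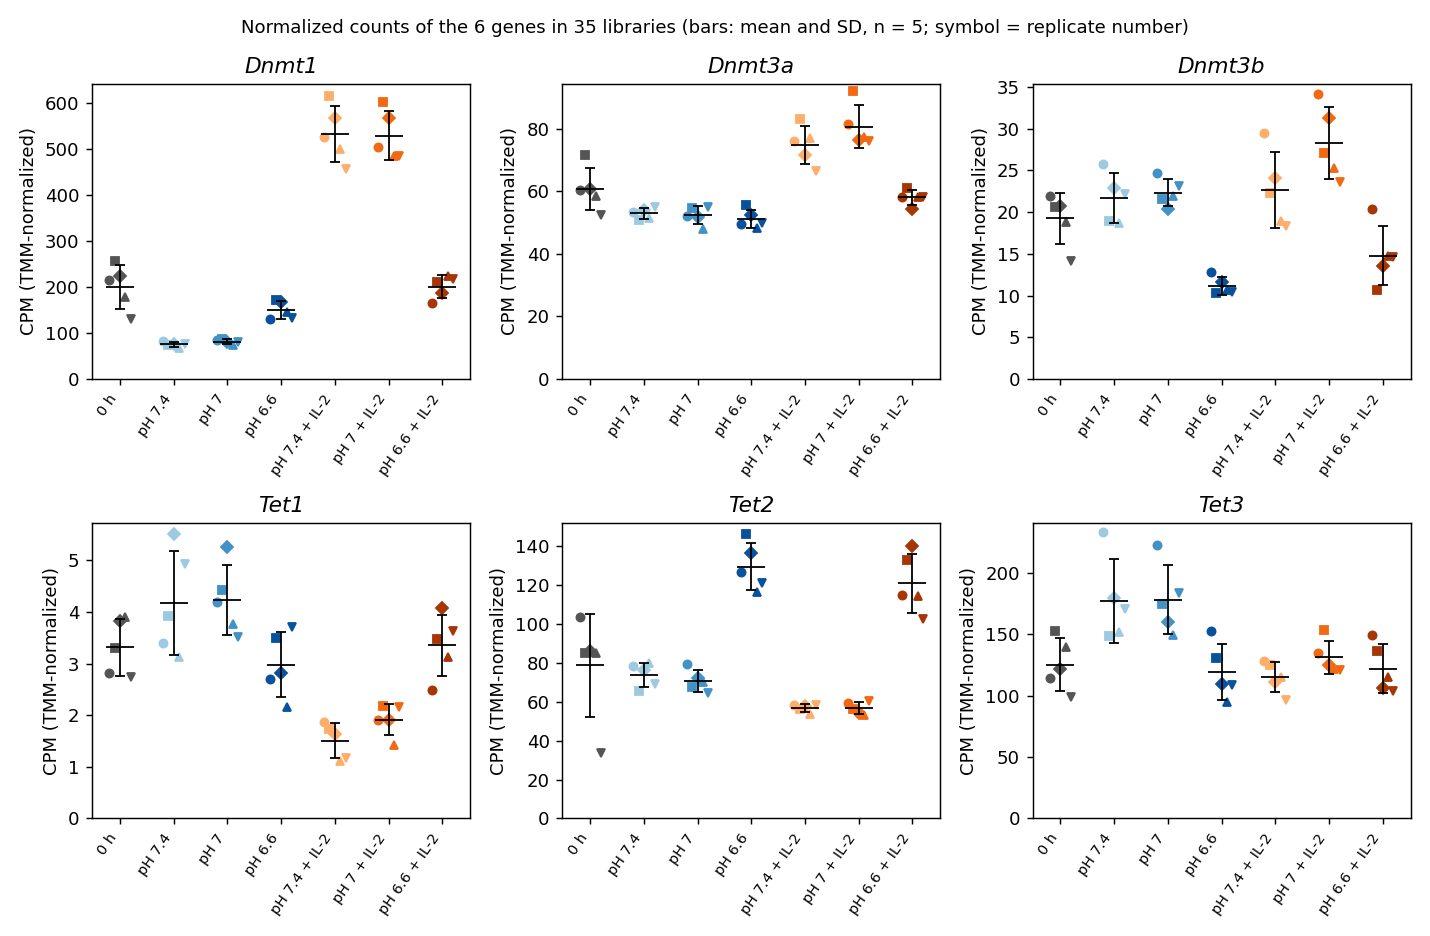
Normalized counts (CPM, linear axes from 0) of the 6 genes in the 35 libraries, by group, where each symbol is a replicate number and the bars give the mean and SD (n = 5). Dnmt1 stands at 456 to 614 CPM in the libraries of pH 7.4 with IL-2 and at 67.9 to 83.1 without it, and Tet2 is highest in both groups of pH 6.6.

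The first comparison asked what acidity did to IL-2-stimulated CTLs. At pH 6.6 with IL-2, all 3 methyltransferase transcripts were lower than at pH 7.4 with IL-2, whereas Tet1 and Tet2 were higher. Dnmt1 fell most, to 0.379 times its level at pH 7.4. The edgeR quasi-likelihood test called 5 of the 6 genes at an adjusted p under 0.05, in a comparison in which it called 76.3% of all tested genes (35.4% higher and 40.9% lower). The summed CD8+ T cell markers moved in the same comparison, from a median of 10638 to 4568 CPM. This sum includes Gzmb, the marker with the widest range among them (36.7 to 9010 CPM over all libraries). The ranges were 674 to 1596 CPM for Cd8a, 399 to 1197 for Cd3g, 374 to 631 for Cd3e and 212 to 414 for Cd8b1. The sum is therefore not a measure of the share of CD8+ T cells, and the markers were not compared singly between these groups.

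Dnmt1 stood at 526, 614, 567, 500.0 and 456 CPM in replicates 1 to 5 at pH 7.4 with IL-2 and at 164, 211, 186, 223 and 218 CPM at pH 6.6 with IL-2. The groups did not overlap, and every replicate was lower at pH 6.6. The log2 fold change was -1.40 ± 0.10 (SE; edgeR adjusted p = 9.24e-14), a 2.64-fold lower level.

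Dnmt3a, a de novo enzyme, stood at 76.0, 83.0, 71.6, 76.8 and 66.5 CPM at pH 7.4 with IL-2 and at 58.2, 60.9, 54.4, 58.2 and 58.1 CPM at pH 6.6 with IL-2. These groups did not overlap either, but the change was far smaller than that of Dnmt1, with a log2 fold change of -0.36 ± 0.06 (edgeR adjusted p = 3.76e-06). Dnmt3b, the other de novo enzyme, stood at 29.5, 22.3, 24.1, 18.9 and 18.3 CPM at pH 7.4 and at 20.4, 10.7, 13.6, 14.7 and 14.7 CPM at pH 6.6. The groups overlapped through replicate 1, which was the highest library of Dnmt3b in 7 of the 7 groups, and each of the 5 replicates was lower at pH 6.6. Its log2 fold change was -0.62 ± 0.10 (edgeR adjusted p = 2.4e-06).

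Tet2 moved the other way. It stood at 58.4, 56.4, 57.8, 53.6 and 58.5 CPM at pH 7.4 with IL-2 and at 115, 133, 139.9, 115 and 102 CPM at pH 6.6 with IL-2. No library at pH 6.6 came near those at pH 7.4, and the log2 fold change was 1.08 ± 0.14 (edgeR adjusted p = 2.27e-08), a 2.11-fold higher level.

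Tet1, the lowest of the family, stood at 1.87, 1.74, 1.64, 1.12 and 1.17 CPM at pH 7.4 with IL-2 and at 2.48, 3.48, 4.07, 3.12 and 3.62 CPM at pH 6.6 with IL-2. The groups did not overlap, and the log2 fold change was 1.15 ± 0.17 (edgeR adjusted p = 2.93e-07), on 26 to 50 counts per library at pH 7.4. Tet3 stood at 128, 125, 111, 116 and 96.7 CPM at pH 7.4 with IL-2 and at 149, 136, 106, 115 and 104 CPM at pH 6.6 with IL-2. The groups overlapped, with 3 of 5 replicates higher at pH 6.6, and the log2 fold change of 0.08 ± 0.10 did not pass (edgeR adjusted p = 0.517). In a fit of those groups alone it was 0.15 (edgeR adjusted p = 0.0353).

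The same comparison without IL-2 gave another pattern. At pH 6.6 without IL-2, Dnmt1 and Tet2 were higher than at pH 7.4 without IL-2, and Dnmt3b, Tet1 and Tet3 were lower. Again 5 of the 6 genes passed, in a comparison in which 67% of all tested genes were called (31.6% higher and 35.4% lower).

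Dnmt1 stood at 83.1, 74.4, 76.1, 67.9 and 75.5 CPM at pH 7.4 and at 130.6, 171, 168, 146 and 132 CPM at pH 6.6, with no overlap. Its log2 fold change was 0.98 ± 0.10 (edgeR adjusted p = 1.03e-09), a 1.97-fold higher level and opposite in sign to the change with IL-2. Dnmt3a stood at 50.9 to 54.8 CPM at pH 7.4 and at 48.2 to 55.7 CPM at pH 6.6, and its log2 fold change of -0.05 ± 0.06 did not pass (edgeR adjusted p = 0.469).

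Dnmt3b stood at 25.8, 18.9, 22.8, 18.7 and 22.1 CPM at pH 7.4 and at 12.8, 10.3, 11.6, 10.6 and 10.4 CPM at pH 6.6. The groups did not overlap, and the log2 fold change was -0.96 ± 0.10 (edgeR adjusted p = 1.42e-09). Dnmt3b was thus lower at pH 6.6 both with and without IL-2.

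Tet2 stood at 78.4, 65.6, 76.3, 79.8 and 69.3 CPM at pH 7.4 and at 127, 146, 137, 116 and 121 CPM at pH 6.6, with no overlap and a log2 fold change of 0.81 ± 0.14 (edgeR adjusted p = 5.72e-06). Tet3 stood at 234, 149, 180.1, 152 and 171 CPM at pH 7.4 and at 153, 131, 109, 94.9 and 109 CPM at pH 6.6. The groups overlapped through replicate 1 at pH 6.6, all 5 replicates were lower there, and the log2 fold change was -0.58 ± 0.10 (edgeR adjusted p = 1.23e-05). Tet1 stood at 3.13 to 5.51 CPM at pH 7.4 and at 2.17 to 3.71 CPM at pH 6.6, lower in 5 of 5 replicates, with a log2 fold change of -0.48 ± 0.16 (edgeR adjusted p = 0.00789). Without replicate 3, the change of Tet1 was -0.38 and did not pass (edgeR adjusted p = 0.0761).

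**Figure D2:**
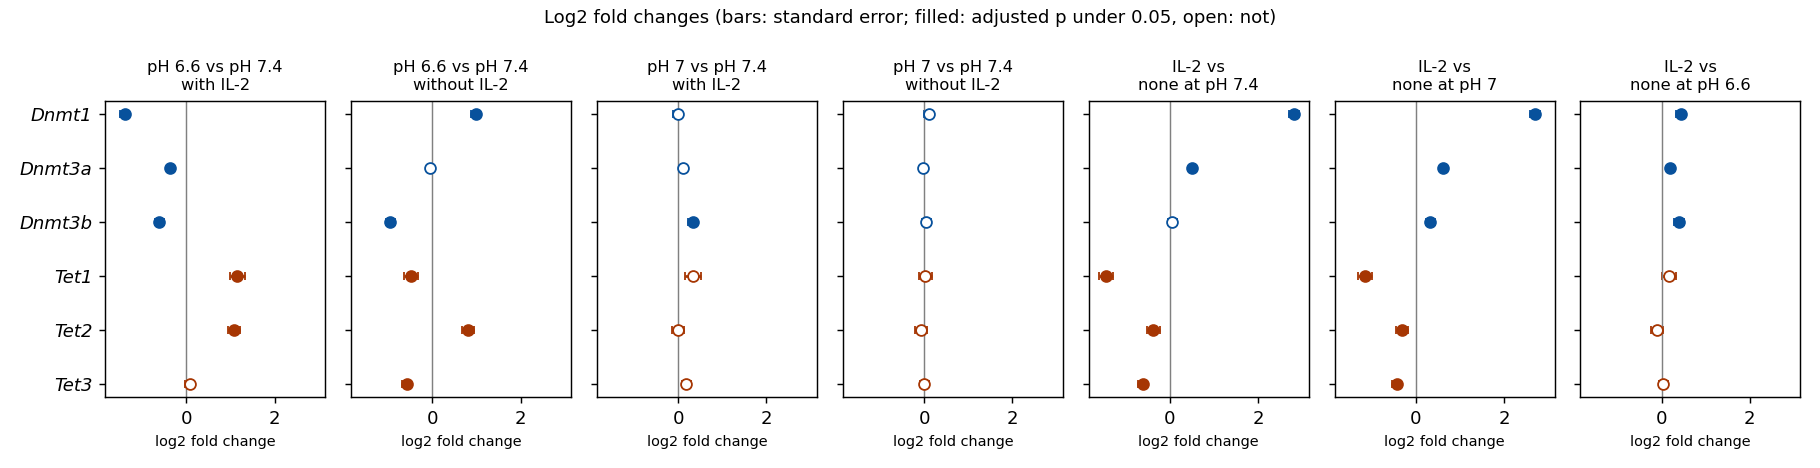
Log2 fold changes of the 6 genes (Dnmt in blue, Tet in orange) in 7 comparisons, with bars for the standard error and filled points for an adjusted p under 0.05. Dnmt1 lies at -1.40 for pH 6.6 with IL-2 and at 0.98 without it, and Tet2 lies at 1.08 and 0.81.

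Whether the effect of pH 6.6 differed with IL-2 was tested as the interaction, the effect with IL-2 minus the effect without it. Of the 6 genes, 5 passed, against 67% of all tested genes (34.3% positive and 32.8% negative). Dnmt1 had the largest difference among the 6, of -2.38 ± 0.15 on the log2 scale (edgeR adjusted p = 2.69e-15). Tet1 followed with 1.62 ± 0.23 (edgeR adjusted p = 2.2e-07), and Tet3 with 0.65 ± 0.15 (edgeR adjusted p = 0.000232). The differences of the de novo enzymes were smaller, -0.31 ± 0.09 for Dnmt3a (edgeR adjusted p = 0.00253) and 0.34 ± 0.15 for Dnmt3b (edgeR adjusted p = 0.0393). Scaled by library total, which moved this contrast by 0.23 for every gene, the differences were -0.09 for Dnmt3a and 0.56 for Dnmt3b. That of Dnmt3a was -0.20 without replicate 3 and did not pass (edgeR adjusted p = 0.105). That of Dnmt3b did not pass without the replicate block (0.34, edgeR adjusted p = 0.135) or without replicate 1, 4 or 5 (0.30, 0.31 and 0.23, with adjusted p from 0.113 to 0.163 in edgeR).

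Tet2 was the exception. Its rise at pH 6.6 was 0.27 ± 0.19 larger with IL-2 on the log2 scale, which did not pass (edgeR adjusted p = 0.218), with a 95% interval of the difference from -0.12 to 0.67. In a fit of the groups compared alone the difference was 0.38 (edgeR adjusted p = 0.00303), and without replicate 5 it was 0.34 (edgeR adjusted p = 0.0123). Scaled by library total, the difference of Tet2 was 0.50, so its size depends on the scaling.

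At pH 7, the milder acidity, 1 of the 6 genes was called with IL-2, against 19% of all tested genes (9.15% higher and 9.83% lower). This was Dnmt3b, at 34.2, 27, 31.2, 25.3 and 23.6 CPM at pH 7, higher than at pH 7.4 in 5 of 5 replicates though the groups overlapped. Its log2 fold change was 0.33 ± 0.10 (edgeR adjusted p = 0.0203). It did not pass without the replicate block (0.32, edgeR adjusted p = 0.126), without replicate 3 (0.31, edgeR adjusted p = 0.102) or without replicate 4 (0.30, edgeR adjusted p = 0.0864). Dnmt3a, Tet1 and Tet3 were also higher in 5 of 5 replicates, with log2 fold changes of 0.11 ± 0.06, 0.33 ± 0.18 and 0.19 ± 0.10 that did not pass (edgeR adjusted p = 0.234, 0.191 and 0.211). The change of Tet3 passed only in a fit of those groups alone (0.21, edgeR adjusted p = 0.0138).

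For Dnmt1, the largest mover at pH 6.6, the log2 fold change at pH 7 with IL-2 was -0.01 with a 95% interval from -0.22 to 0.20, and for Tet2 it was -0.0044 with an interval from -0.29 to 0.28. Both differ in sign by another scaling, by library total, in which they are 0.04 and 0.05. Without IL-2, 0 of the 6 genes passed at pH 7, against 1.68% of all tested genes (1.36% higher and 0.318% lower). At an unadjusted p under 0.05 and by DESeq2 the number was 0 as well. The smallest edgeR adjusted p among them was 0.976, and their log2 fold changes ran from -0.06 for Tet2 to 0.10 for Dnmt1.

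The effect of IL-2 itself was largest on Dnmt1. At pH 7.4, Dnmt1 was 7.02-fold higher with IL-2, with a log2 fold change of 2.81 ± 0.11 (edgeR adjusted p = 2.7e-21) and no overlap between 67.9 to 83.1 CPM without and 456 to 614 CPM with IL-2. Dnmt3a was higher by 0.49 ± 0.06 (edgeR adjusted p = 1.26e-08), with no overlap between the groups. All 3 Tet transcripts were lower with IL-2. The log2 fold change was -1.45 ± 0.17 for Tet1 (edgeR adjusted p = 1.63e-09), -0.62 ± 0.10 for Tet3 (edgeR adjusted p = 2.68e-06) and -0.37 ± 0.14 for Tet2 (edgeR adjusted p = 0.0146). That of Tet2 was -0.32 without replicate 4 and did not pass (edgeR adjusted p = 0.0837). The value for Dnmt3b, 0.05 ± 0.10, did not pass (edgeR adjusted p = 0.627), and it was -0.11 when scaled by library total. In all, 5 of the 6 genes were called, against 80.4% of all tested genes (39.3% higher and 41.1% lower).

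At pH 7, 6 of the 6 genes were called for IL-2, against 77.2% of all tested genes (37.6% higher and 39.5% lower). Dnmt1 was higher by 2.70 ± 0.11 (edgeR adjusted p = 1.23e-20), Dnmt3a by 0.62 ± 0.06 (edgeR adjusted p = 9.67e-11) and Dnmt3b by 0.33 ± 0.10 (edgeR adjusted p = 0.00373). Dnmt3b was at 0.19 and did not pass without replicate 3 (edgeR adjusted p = 0.142), and it was at 0.21 when scaled by library total. Tet1 and Tet3 were lower, with log2 fold changes of -1.15 ± 0.16 and -0.44 ± 0.10 (edgeR adjusted p = 1.01e-07 and 0.000334). For Tet2 the change was -0.31 ± 0.14 (edgeR adjusted p = 0.04). It did not pass without the replicate block (-0.32, edgeR adjusted p = 0.0505), or without replicate 1, 2, 3 or 4 (-0.29, -0.32, -0.35 and -0.29, with edgeR adjusted p from 0.0638 to 0.12).

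At pH 6.6, the changes with IL-2 were smaller in size than at pH 7.4 for each of the genes except Dnmt3b. The 3 methyltransferases passed, against 23.7% of all tested genes (13.2% higher and 10.6% lower), and the 3 Tet genes did not. Dnmt1 was higher by 0.43 ± 0.10 (edgeR adjusted p = 0.00218), a 1.35-fold level, and its groups overlapped, from 130.6 to 171 CPM without and from 164 to 223 CPM with IL-2. Dnmt3b was higher by 0.39 ± 0.11 (edgeR adjusted p = 0.00576), which became 0.32 and did not pass without replicate 1 (edgeR adjusted p = 0.0635). Dnmt3a was higher by 0.18 ± 0.06 (edgeR adjusted p = 0.0322). It did not pass without the replicate block (0.18, edgeR adjusted p = 0.0756), or without replicate 1, 4 or 5 (0.17, 0.16 and 0.17, with edgeR adjusted p from 0.057 to 0.152). The log2 fold changes of the Tet genes ran from -0.10 ± 0.14 for Tet2 to 0.18 ± 0.16 for Tet1, and the 95% intervals from -0.38 to 0.50.

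Against the start of the culture, Dnmt1 went both ways. At 0 h it stood at 215, 255, 223, 178 and 130.2 CPM, an amount between those of the groups at pH 7.4 with and without IL-2. It was higher after 24 h at pH 7.4 with IL-2 by 1.42 ± 0.10 on the log2 scale (edgeR adjusted p = 3.65e-13) and lower without IL-2, with a change of -1.39 ± 0.11 (edgeR adjusted p = 1.83e-13). Neither group overlapped with 0 h. At pH 6.6 with IL-2, Dnmt1 was at the level of 0 h, with a log2 fold change of 0.02 ± 0.10 (edgeR adjusted p = 0.851), and at pH 6.6 without IL-2 the change was -0.41 ± 0.10 (edgeR adjusted p = 0.000655).

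The calls against 0 h varied with the condition. The number of the 6 genes called was 4 at pH 7.4 with IL-2, 3 at pH 7.4 without IL-2, 4 at pH 6.6 without IL-2 and 2 in the pH 6.6 group that received IL-2. Of all tested genes, 59.9% were called in the first of these comparisons (29% higher and 30.9% lower) and 75.2% in the second (36.9% higher and 38.3% lower). The third called 75.1% (34.8% higher and 40.3% lower) and the fourth 68.5% (30.5% higher and 38% lower). Tet2 was higher than at 0 h at pH 6.6, by 0.64 ± 0.14 with IL-2 (edgeR adjusted p = 0.000125) and 0.74 ± 0.14 without it (edgeR adjusted p = 1.37e-05). The groups overlapped with IL-2 but not without it, and both changes include the low Tet2 library at 0 h, replicate 5 (33.5 CPM). Dnmt3b was lower at pH 6.6 than at 0 h, with changes of -0.39 ± 0.10 (edgeR adjusted p = 0.00121) and -0.78 ± 0.10 (edgeR adjusted p = 4.09e-08). That of -0.39 was -0.27 and did not pass without replicate 3 (edgeR adjusted p = 0.0555). Tet1 was lower at pH 7.4 with IL-2 (-1.14 ± 0.17, edgeR adjusted p = 7.45e-07), and Tet3 was higher at pH 7.4 without IL-2 (0.49 ± 0.10, edgeR adjusted p = 9.39e-05). Dnmt3a was higher at pH 7.4 with IL-2 (0.30 ± 0.06, edgeR adjusted p = 0.000104) and lower without it (-0.19 ± 0.06 at pH 7.4 and -0.25 ± 0.06 at pH 6.6, with edgeR adjusted p of 0.00653 and 0.000755). The change at pH 7.4 without IL-2 was -0.12 without replicate 2 and -0.15 without replicate 3 and passed in neither (edgeR adjusted p = 0.13 and 0.0803). It was -0.10 when scaled by library total.

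Values of Tet2 at 0 h depended on 1 library. Tet2 stood at 104, 85.2, 85.9, 85.3 and 33.5 CPM there, so that replicate 5 lay far below the others. This library was the lowest of the 5 at 0 h for 6 of the 6 genes, and how often it was the lowest among all tested genes was not counted. It enters the changes against 0 h of all the genes given above. It had 27047552 counts on genes, and 48.3% of its reads were aligned to several places, the highest share of all 35 libraries. The part of these values in the low Tet2 level was not tested. At pH 7.4 with IL-2, Tet2 was lower than at 0 h by the test (-0.44 ± 0.14, edgeR adjusted p = 0.00737), with -0.33 and -0.38 and no call without replicate 1 or replicate 4 (edgeR adjusted p = 0.089 and 0.0612) and -0.67 without replicate 5. At pH 7.4 without IL-2 the change of Tet2 was -0.06 ± 0.14 (edgeR adjusted p = 0.679), and -0.26 without replicate 5, which passed (edgeR adjusted p = 0.00646).

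The order of the groups differed between genes. By mean CPM, Dnmt1 ran from 533 ± 60.8 (SD, n = 5) at pH 7.4 with IL-2, with pH 7 plus IL-2 next at 528 ± 53.4, through 200.3 ± 24.8 at pH 6.6 with IL-2, 200.3 ± 48.0 at 0 h and 149.6 ± 19.3 at pH 6.6 to 81.1 ± 5.33 at pH 7 and 75.4 ± 5.41 at pH 7.4. Neighbours in this order overlapped except at the steps after pH 7 with IL-2 and after pH 6.6. Dnmt3a ran from 80.6 ± 6.78 at pH 7 with IL-2 to 51.1 ± 2.94 CPM at pH 6.6 without IL-2, and all neighbours overlapped.

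Dnmt3b ran from 28.3 ± 4.36 at pH 7 with IL-2 to 11.2 ± 1.05 CPM at pH 6.6 without IL-2, with all neighbours overlapping. Tet1 ran from 4.23 ± 0.673 CPM at pH 7 without IL-2 to 1.51 ± 0.34 at pH 7.4 with IL-2, also with overlap at every step. Tet2 was highest at pH 6.6 without IL-2, at 129 ± 12.1 CPM, and at pH 6.6 with IL-2, at 121 ± 15.2. The lowest were pH 7.4 with IL-2, at 56.9 ± 2.06, and pH 7 with IL-2, at 56.7 ± 3.21, which did not overlap with the next group, pH 7 without IL-2. Tet3 was highest at pH 7 and pH 7.4 without IL-2, at 178 ± 28.1 and 177 ± 34.3 CPM, whereas the other 5 groups lay between 115 ± 12.5 and 131 ± 13.5 CPM. Neighbours overlapped throughout.

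Ratios within a library do not depend on the scaling between libraries. The ratio of Tet3 to Tet2 counts was chosen after the values were seen and is given as a description. It was 2.40 ± 0.39 (SD, n = 5) at pH 7.4, 2.52 ± 0.328 at pH 7, 2.03 ± 0.242 at pH 7.4 with IL-2, and with IL-2 at pH 7 it was 2.32 ± 0.257. At pH 6.6 it was 0.923 ± 0.166 without and 1.02 ± 0.192 with IL-2, so that the 10 libraries at pH 6.6, from 0.760 to 1.30, all lay below the lowest of the 20 at pH 7 and pH 7.4, at 1.65. The 5 libraries at 0 h were spread from 1.1 to 2.95. The highest was replicate 5, the library with the low Tet2 level (33.5 CPM). Most of the others at 0 h also lay below 1.65, and the lowest lay within the range of pH 6.6. A ratio below those of pH 7 and pH 7.4 was thus not particular to pH 6.6. Per length, Tet2 supplied 51.4% ± 4.05 of the summed FPKM of the Tet genes at pH 6.6 without IL-2 and 29% ± 3.27 at pH 7.4 without IL-2, and Tet1 at most 1.83% on average in any group.

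The ratio of Dnmt1 to Dnmt3a counts was highest with IL-2 and lowest without it at pH 7 and pH 7.4. It was 1.42 ± 0.0911 at pH 7.4 and 1.55 ± 0.0622 at pH 7 without IL-2, and 7.12 ± 0.549 and 6.55 ± 0.5 with IL-2. At pH 6.6 the ratio was 2.92 ± 0.261 without and 3.45 ± 0.398 with IL-2, and at 0 h it was 3.26 ± 0.506. These 3 groups overlapped with each other, and so did pH 7 and pH 7.4, both with and without IL-2.

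**Figure D3:**
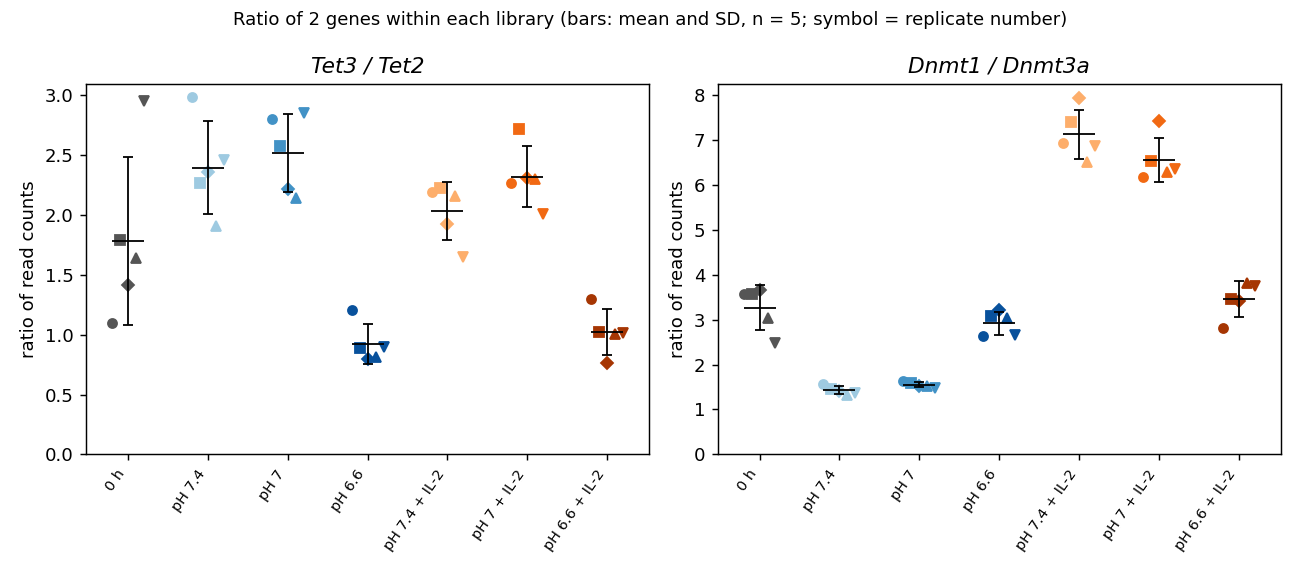
Ratio of read counts of Tet3 to Tet2 (left) and of Dnmt1 to Dnmt3a (right) in each of the 35 libraries, on linear axes from 0, with the mean and SD (n = 5) and a symbol for each replicate number. The 10 libraries of pH 6.6 have Tet3 to Tet2 ratios of 0.760 to 1.30, below those of pH 7 and pH 7.4, and the Dnmt1 to Dnmt3a ratio is highest with IL-2 at pH 7.4 and pH 7.

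Genes around the 6 enzymes were taken from lists fixed by known role, and a list is described by its counts and its median beside the median of all tested genes. For pH 6.6 against pH 7.4 with IL-2 the median log2 fold change of all tested genes was -0.07, without IL-2 it was -0.03, for IL-2 at pH 7.4 it was -0.04 and for the interaction it was 0.04. Without regard to sign, the medians were 0.71, 0.47, 0.80 and 0.71 in the same order. Called changes smaller than these were those of Dnmt3a and Dnmt3b at pH 6.6 with IL-2. For IL-2 at pH 7.4 they were those of Dnmt3a, Tet2 and Tet3, and in the interaction those of Dnmt3a, Dnmt3b and Tet3. The shares of tested genes called in these comparisons are those given above. In each list, the 3 genes with the largest changes past the threshold are named, with log2 fold changes ± SE from edgeR.

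Of the 11 maintenance partners of Dnmt1, most but not all that passed had the sign of Dnmt1. With IL-2, 9 were lower at pH 6.6 and 2 higher, with a median of -1.31. The largest changes were those of Pclaf, a factor bound to Pcna (-2.95 ± 0.20), Cdca7, a partner of the remodeller Hells (-2.87 ± 0.16), and Uhrf1, which recruits Dnmt1 to half-methylated DNA (-2.63 ± 0.18). The 2 higher genes were Zbtb24 (0.94) and Uhrf2 (0.63). Without IL-2, 7 were higher at pH 6.6, 0 were lower and 4 did not pass, with a median of 0.51, and the largest were Uhrf1 (2.70 ± 0.21), Pclaf (2.39 ± 0.22) and Lig1, the ligase of lagging-strand synthesis (1.67 ± 0.09).

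At pH 7.4, IL-2 raised 8 of the partners and lowered 2, with a median of 2.93, and the 2 were Zbtb24 (-0.96) and Uhrf2 (-0.40). Uhrf1 (6.67 ± 0.23), Pclaf (6.65 ± 0.25) and Cdca7 (6.31 ± 0.20) led. Uhrf1 thus stood at 3.06 CPM on average at pH 7.4 without IL-2 and at 312 CPM with it. In the interaction, 8 were negative and 1 positive, with a median of -2.34, led by Pclaf (-5.34 ± 0.30), Uhrf1 (-5.33 ± 0.27) and Cdca7 (-3.99 ± 0.27).

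Genes of S phase, given because Dnmt1 is known to be expressed in that phase, numbered 24. All 24 of 24 were lower at pH 6.6 with IL-2, with a median of -2.28. Tyms, the thymidylate synthase, changed most (-3.39 ± 0.15), followed by Gins1 of the replicative helicase (-2.84 ± 0.17) and Cdc6, which licenses origins (-2.69 ± 0.17). Without IL-2, 19 were higher at pH 6.6, 1 was lower (Tyms, -0.52) and 4 did not pass, with a median of 0.78, led by Cdc6 (2.94 ± 0.23), Rrm2 of ribonucleotide reductase (2.56 ± 0.18) and Cdc45 of the helicase (1.89 ± 0.16).

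With IL-2 added at pH 7.4, all 24 of the 24 S phase genes were higher, with a median of 3.72, led by Cdc6 (6.83 ± 0.22), Rrm2 (6.18 ± 0.20) and Gins1 (5.15 ± 0.20). In the interaction 24 of 24 were negative, with a median of -2.89, led by Cdc6 (-5.63 ± 0.28), Rrm2 (-5.24 ± 0.24) and Cdc45 (-4.23 ± 0.22). Summed over the list, the median level was 5656 CPM at pH 7.4 with IL-2, 1498 at pH 6.6 with IL-2, 1016 at pH 6.6 and 628 at pH 7.4. The part of the S phase genes in the values of Dnmt1 was not tested.

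Over the 35 libraries, the log2 CPM of Dnmt1 correlated with the mean of the S phase genes with a Pearson r of 0.985, and that of Dnmt3a with 0.902. For Dnmt3b r was 0.327, for Tet1 -0.823, for Tet2 -0.418 and for Tet3 -0.536. These values are descriptions. They include the differences between 7 groups, and the libraries share replicate numbers.

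Among 9006 other genes whose log2 CPM averaged 3 or more (9007 for Tet1), the patterns most like that of Dnmt1 over the 35 libraries were those of Pole, the catalytic subunit of a replicative polymerase (Pearson r of 0.995), Mcm5 of the replicative helicase (0.991) and Nup205 of the nuclear pore (0.989). For Dnmt3a they were Smarca4 (0.943), Tubgcp2 (0.939) and Atp6v0a2 (0.939), and for Dnmt3b Pofut1 (0.935), Camkk2 (0.928) and Abcc4 (0.905). The genes most like Tet1 were Ripor2 (0.902), Krba1 (0.894) and Mgst2 (0.885), those most like Tet2 were Ubp1 (0.928), Phc3 (0.927) and Fam102b (0.908), and among those most like Tet3 were Ccnj (0.884) and Amer1 (0.873). Between the 6 genes themselves, r was highest for Dnmt1 and Dnmt3a (0.902) and lowest for Dnmt1 and Tet1 (-0.811).

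Readers of methylated and unmethylated CpG sites moved in both directions. Acidity with IL-2 left 6 of 13 higher and 2 lower, with a median of 0.06. Mbd3, a subunit of a deacetylase and remodelling complex, was lower (-1.46 ± 0.10), and Zbtb4, a zinc finger protein that binds methylated DNA, and Kdm2b, a histone demethylase that binds unmethylated CpG, were higher (1.07 ± 0.07 and 1.02 ± 0.09). Without IL-2, 3 were higher and 5 lower, with a median of -0.11, led by Mbd5 (-0.94 ± 0.10), Zbtb4 (-0.72 ± 0.07) and the glycosylase Mbd4 (0.72 ± 0.11). IL-2 at pH 7.4 raised 2 and lowered 7, with a median of -0.37, led by Zbtb4 (-1.79 ± 0.07) and Mbd3 (1.56 ± 0.10). The interaction was positive for 8 and negative for 2, with a median of 0.39, led by Zbtb4 (1.79 ± 0.10), Mbd3 (-1.31 ± 0.15) and Mbd6 (0.91 ± 0.18).

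Of the 13 histone-mark genes and cofactors that steer the Dnmt3 enzymes, 12 passed the filter, and Dnmt3l, the catalytically inactive cofactor, did not. At pH 6.6 with IL-2, 9 were higher and 2 lower, with a median of 0.43. The histone methyltransferases Nsd3 (1.86 ± 0.08), Ezh2 of the Polycomb complex (-1.21 ± 0.10) and Kmt2a (1.1 ± 0.15) led. Without IL-2, 6 were higher and 3 lower, with a median of 0.13, led by Nsd2 (1.05 ± 0.08), Ezh2 (0.79 ± 0.10) and Kmt2a (-0.76 ± 0.15). At pH 7.4, IL-2 raised 3 and lowered 9, with a median of -0.63, led by Kmt2a (-2.09 ± 0.16), Ezh2 (2.0 ± 0.10) and Nsd2 (1.77 ± 0.08), and the interaction was positive for 7 and negative for 3, with a median of 0.47, led by Ezh2 (-2.0 ± 0.14), Kmt2a (1.86 ± 0.21) and Nsd2 (-1.75 ± 0.11).

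Partners of the Tet enzymes and enzymes of 2-oxoglutarate, their cosubstrate, included 13 tested genes of 14, as Cxxc4 did not pass the filter. At pH 6.6 with IL-2, 8 were lower and 4 higher, with a median of -0.27. The 4 higher were Ogt (0.98), Idh1 (0.78), Cxxc5 (0.66) and Idh3b (0.35). The largest changes were in the mitochondrial enzymes Idh3a, which makes 2-oxoglutarate (-2.06 ± 0.09), Fh1, the fumarate hydratase (-1.44 ± 0.07), and Sdhb of succinate dehydrogenase (-1.13 ± 0.08). Without IL-2, 4 were higher and 5 lower, with a median of 0.11, led by the cytosolic Idh1 (1.37 ± 0.15), Ogt, a glycosyltransferase that binds Tet proteins (-1.11 ± 0.07), and Idh2 (-0.79 ± 0.09). IL-2 at pH 7.4 raised 8 and lowered 4, with a median of 0.42, led by Idh3a (2.27 ± 0.09), Ogt (-2.07 ± 0.08) and Sdhb (1.86 ± 0.08). The interaction was positive for 4 and negative for 9, with a median of -0.59, led by Ogt (2.09 ± 0.11), Idh3a (-1.72 ± 0.13) and Sdhb (-1.67 ± 0.12).

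Genes of the excision repair that removes oxidised 5-methylcytosine split as well. With IL-2, 5 of 14 were higher at pH 6.6 and 8 lower, with a median of -0.47. Gadd45b, a stress-induced factor linked to demethylation, was higher (2.84 ± 0.20), as were Neil1 (2.46), Gadd45a (2.17), Smug1 (0.49) and Polb (0.33), while the uracil glycosylase Ung (-2.77 ± 0.18) and the endonuclease Apex1 (-2.52 ± 0.14) were lower. Without IL-2, 6 were higher and 3 lower, with a median of 0.13, led by the glycosylases Neil3 (2.79 ± 0.23) and Neil1 (1.33 ± 0.10) and by Gadd45a (1.14 ± 0.14). At pH 7.4, IL-2 raised 7 and lowered 6, with a median of 0.63, led by Ung (4.71 ± 0.21), Neil3 (4.25 ± 0.23) and Apex1 (3.65 ± 0.15). The interaction was positive for 5 and negative for 7, with a median of -0.50, led by Neil3 (-3.92 ± 0.30), Apex1 (-2.91 ± 0.21) and Ung (-2.90 ± 0.32). Tdg, the glycosylase that removes the oxidised bases, had a log2 fold change of -0.63 at pH 6.6 with IL-2 and passed.

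The S-adenosylmethionine cycle supplies the methyl donor of the Dnmt enzymes. In the comparison with IL-2, 8 of 12 genes were lower at pH 6.6 and 4 higher, with a median of -0.85. Mat2b (0.86), Ahcyl2 (0.58) and Ahcyl1 (0.33) were among the higher. The 3 largest changes were in the polyamine branch, in the spermidine synthase Srm (-3.55 ± 0.17), Mtap, which recycles methylthioadenosine (-2.12 ± 0.10), and Amd1, which decarboxylates S-adenosylmethionine (-2.05 ± 0.13). Without IL-2, 4 were higher and 4 lower, with a median of -0.03, and the same 3 genes led, Amd1 (-0.82 ± 0.13), Srm (-0.48 ± 0.21) and Mtap (-0.40 ± 0.10). IL-2 at pH 7.4 raised 8 and lowered 3, with a median of 0.86, led by Srm (5.23 ± 0.19), Mtap (2.41 ± 0.10) and Mat2a, which makes S-adenosylmethionine (1.89 ± 0.15). The interaction was positive for 2 and negative for 8, with a median of -0.65, led by Srm (-3.07 ± 0.27), Mtap (-1.72 ± 0.14) and Ahcy, which clears the product of methylation (-1.67 ± 0.13).

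**Figure D4:**
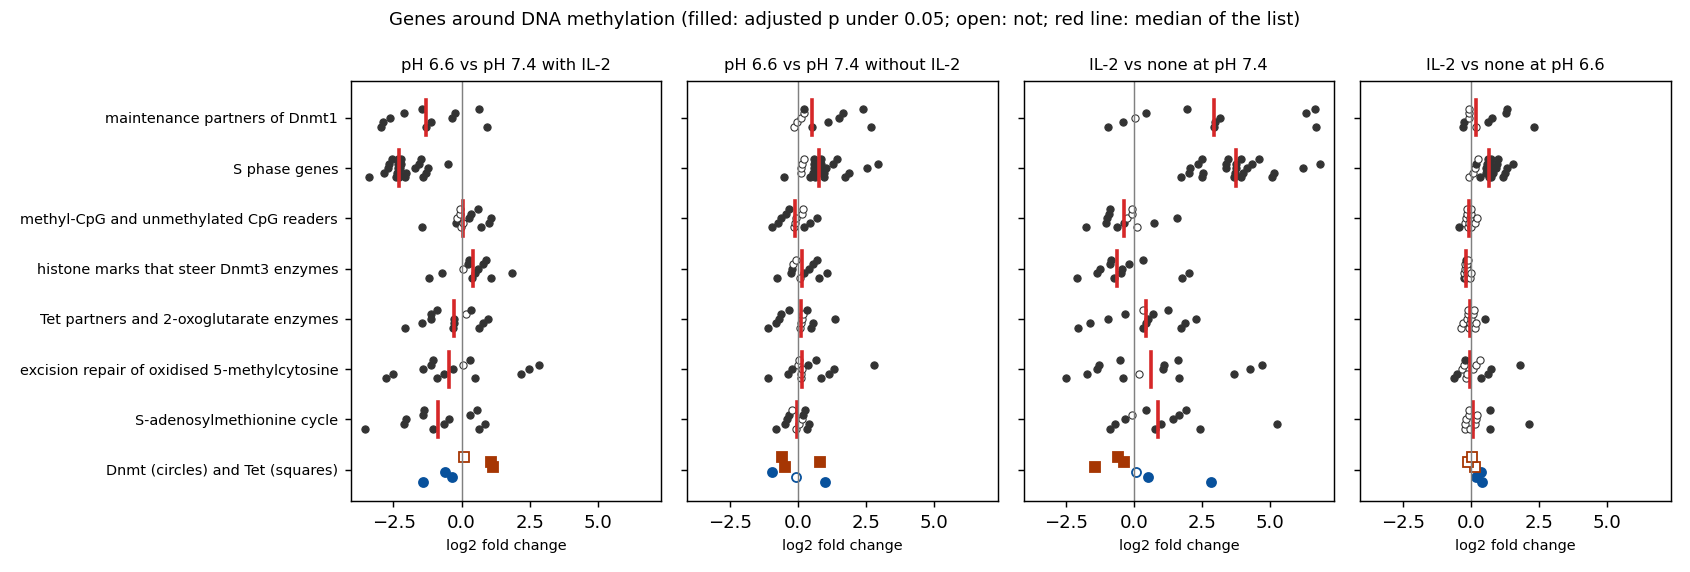
Log2 fold changes of the genes of 7 lists and of the 6 enzymes in 4 comparisons, filled for an adjusted p under 0.05 and open otherwise, with a red line for the median of each list. The S phase genes have medians of -2.28, 0.78 and 3.72 in the first 3 comparisons, and the maintenance partners of Dnmt1 have medians of -1.31, 0.51 and 2.93.

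At pH 7 without IL-2, 3 genes of the 7 lists passed, and all were higher than at pH 7.4. They were the ligase Lig1 (0.72 ± 0.09), the glycosylase Neil3 (1.31 ± 0.23) and Rrm2 (0.76 ± 0.18). In the other 4 lists 0 genes passed by edgeR, and 0 had an unadjusted p under 0.05. With IL-2 at pH 7, 0 of 11 maintenance partners passed by edgeR (3 at an unadjusted p under 0.05), and 1 of 24 S phase genes, Mcm3 (-0.26 ± 0.09), was lower.

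In the other lists, these genes passed at pH 7 with IL-2. Zbtb4 (0.50 ± 0.07), Kmt2a (0.46 ± 0.15), Ogt (0.34 ± 0.07) and Nsd3 (0.29 ± 0.08) were higher. Srm (-0.62 ± 0.15), Apex1 (-0.54 ± 0.13), Amd1 (-0.40 ± 0.12), Mtap (-0.37 ± 0.10), Idh3a (-0.35 ± 0.09), Sdhb (-0.34 ± 0.08), Tdg (-0.33 ± 0.08), Mbd3 (-0.30 ± 0.10) and Fh1 (-0.25 ± 0.07) were lower, and so was Ahcy (-0.55 ± 0.09). The remaining 3 genes that passed were Mbd1 (0.20 ± 0.06), Idh3g (-0.19 ± 0.07) and Parp1 (-0.18 ± 0.07).

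For IL-2 at pH 6.6, 20 of 24 S phase genes were higher, with a median of 0.67, against 13.2% of all tested genes. The 5 higher maintenance partners were Cdca7 (2.32 ± 0.18), Uhrf1 (1.33 ± 0.18), Pclaf (1.31 ± 0.20), Pcna (0.79 ± 0.10) and Cdca7l (0.65 ± 0.09), and the 2 lower ones were Uhrf2 (-0.28 ± 0.07) and Zbtb24 (-0.26 ± 0.06). In the other lists, Srm (2.16 ± 0.19) and Ung (1.81 ± 0.22) changed most.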

How the data were processed

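Polyadenylated RNA was prepared with a stranded Illumina TruSeq kit and sequenced as single reads on a HiSeq instrument. The authors deposited, for each of 35 libraries, raw read counts per gene (column of whole counts, no normalization). Their processing notes name cutadapt 1.8, STAR 2.5.2b, HTSeq 0.6.1 and GRCm38. The annotation release is not given in the sources used here. The closing lines of each table, which are not genes, were kept out of library sizes and tests (reads aligned to several places 32.8% to 48.3%, outside genes 2.58% to 11.1%, ambiguous 0.871% to 0.997% of the reads in the tables). Symbols matched 48349 identifiers.

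The filter filterByExpr of edgeR 4.0.16 (R 4.3.3, minimum count 10) left 13819 genes. Counts were normalized by TMM, and edgeR fitted 1 robust quasi-likelihood model to 7 groups with the replicate number as a block. A Benjamini-Hochberg adjusted p under 0.05 over all tested genes was the threshold in each of 12 contrasts. The CPM are counts scaled to a common TMM-normalized library size, and FPKM divide them by the length of all exons in GENCODE M21. The study names paired tests in general, and same-numbered libraries deviated together in 95 of 105 pairs (r over 0.1), and in 5 of 5 pairs of pH 6.6 and pH 7.4 with IL-2 (r from 0.198 to 0.416). No pair of 70 within groups was a duplicate by a chi-square test (lowest chi-square per degree of freedom 6.17).

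The alternatives were DESeq2 1.42.0, RLE normalization, 2 other filters (looser, a count of 1 or more anywhere, and stricter, 10 or more throughout), a fit of the groups compared alone, no replicate block and leaving out each replicate. Scaling by library total in place of TMM was computed for levels. On simulated counts of 13819 genes for pH 6.6 and pH 7.4 with IL-2, 38 of 62 genes changed by 0.5, 69 of 80 changed by 1 and 54 of 58 changed by 2 on the log2 scale were recovered, with 3 false calls. Only these genes were changed, only at pH 6.6 with IL-2, and no replicate effect was simulated. In the data 76.3% of tested genes were called in this comparison, a setting for which the simulation cannot give recovery or false calls.

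The 6 genes, the lists, the tests and the rule for naming genes were chosen with earlier results of these data known. The rule names the 6 genes throughout, the 3 largest changes past the threshold of each list in 4 comparisons, and the 3 genes most like each of the 6. Values named outside it (list members given without SE, those at pH 7 and for IL-2 at pH 6.6, Tdg and the ratios) were chosen after their values were seen. Some of the genes concerned are not reported here.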

Additional observations from a re-analysis of the deposited data

Results flagged for a closer look

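Tet2 at 0 h had 1 library apart from the other 4. Replicate 5 stood at 33.5 CPM, and the others lay between 85.2 and 103.8 CPM, a gap of 0.735 of the whole range (Dixon's ratio). This was 1 of 42 groups of 5 libraries examined, where chance gives about 1 in 20.

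Between cells with and without IL-2, the change at pH 6.6 was unlike, by the interaction term of the edgeR model, in 5 of the 6 genes. Of all tested genes, 67% were called by this term. The difference (with minus without IL-2, log2) was -2.38 for Dnmt1, -0.312 for Dnmt3a, 0.34 for Dnmt3b, 1.62 for Tet1 and 0.653 for Tet3. That of Dnmt3a did not pass without replicate 3 and was -0.09 when scaled by library total. That of Dnmt3b did not pass in several of the alternatives, among them the fit without the replicate block. The signs of the effects themselves were opposite for Dnmt1 and Tet1. For Dnmt3b the effect was negative in both, and for Dnmt3a and Tet3 1 of the 2 effects did not pass.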

How the results depend on the processing

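Of the 792 values for the 6 genes under 11 alternatives, 746 kept their direction and side of the threshold, 34 lost the call, 12 gained it and 0 changed sign while called. Without the replicate block, the 4 calls lost were Dnmt3a for IL-2 at pH 6.6 (0.181), the interaction of Dnmt3b (0.341), Dnmt3b at pH 7 with IL-2 (0.321) and Tet2 for IL-2 at pH 7 (-0.32), and the genes called for pH 7 fell from 2623 to 1660 with IL-2 and from 232 to 56 without it. The missing block changed no other call of the 6 genes.

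With the looser filter, Dnmt3a for IL-2 at pH 6.6 (0.185), Dnmt3a at pH 7.4 without IL-2 against 0 h (-0.178), the Dnmt3b interaction (0.333) and Tet2 for IL-2 at pH 7 (-0.29) lost their calls. In fits of the groups compared alone, calls were lost against 0 h for Dnmt3a at pH 6.6 and pH 7.4 without IL-2 (-0.195 and -0.196), Dnmt3b at pH 6.6 with IL-2 (-0.338) and Tet2 at pH 7.4 with IL-2 (-0.383). Calls were gained for the Tet2 interaction (0.376) and for Tet3 at pH 6.6 and pH 7 with IL-2 (0.151 and 0.211). Gene counts were then 5494 for IL-2 at pH 6.6 (main 3278), and 4397 and 926 for pH 7 with and without IL-2. Dnmt3b at pH 7.4 with IL-2 against 0 h gained a call by DESeq2 (0.234) and RLE normalization (0.233), and Tet1 at pH 7.4 without IL-2 against 0 h by DESeq2 (0.329) and the stricter filter (0.349).

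Leaving out replicates gave ranges, for Dnmt3a, of 0.16 to 0.254 (IL-2 at pH 6.6), -0.375 to -0.202 (interaction) and -0.254 to -0.119 (pH 7.4 without IL-2 against 0 h). For Dnmt3b they were 0.32 to 0.477 and 0.193 to 0.403 (IL-2 at pH 6.6 and pH 7), 0.233 to 0.491 (interaction), 0.304 to 0.356 (pH 7 with IL-2), and against 0 h -0.494 to -0.257 (pH 6.6 with IL-2), 0.173 to 0.277 and 0.0598 to 0.25 (pH 7.4 with and without IL-2). For Tet1 they were -0.557 to -0.378 (pH 6.6 without IL-2) and 0.181 to 0.48 (pH 7.4 without IL-2 against 0 h). For Tet2 they were -0.374 to -0.286 and -0.427 to -0.321 (IL-2 at pH 7 and pH 7.4), 0.201 to 0.342 (interaction), and against 0 h -0.669 to -0.326 and -0.26 to 0.0345 (pH 7.4 with and without IL-2). Gene counts ran from 2120 to 2801 (IL-2 at pH 6.6), 1323 to 2388 and 42 to 336 (pH 7 with and without IL-2). The cause of these changes was not tested, and each of these fits also had fewer samples.

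Scaling by library total moved every gene alike, by 0.0745 for pH 6.6 against pH 7.4 with IL-2, -0.153 without IL-2, -0.158 for IL-2 at pH 7.4 and 0.227 for the interaction, and changed the sign of 3 differences, none of them called. Tet1 had 26 to 160 counts per library, the lowest depth of the 6.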
